A study of Mus musculus with 20 samples.

Results

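The genes described here encode proteins of the cytosolic ribosome and factors that start, carry out or regulate translation. They were measured in mouse heart ventricle on Affymetrix arrays. Members were chosen by symbol alone: names starting Rpl or Rps and a digit (without the Rps6k kinases), Rplp, Eif and a digit, or Eef and a digit, on a probe set that names 1 gene. This gave 83 of the 8251 genes with a probe set of their own, 34 ribosomal protein genes and 49 translation factor genes. The factor class includes 4 kinases of eIF2, 2 binding proteins of eIF4E and 2 enzymes that act on elongation factors. The ribosomal protein class includes Rps4l, a transcribed pseudogene. Counts and medians of a class pool all its genes. Each gene is represented by its probe set with the highest mean over the 19 arrays that have a group. The groups were tTA + Doxy with 5 arrays, tTA with 8, FVBN + Doxy with 4 and FVBN control with 2. The tTA animals are FVBN mice that express the tetracycline transactivator in the heart, and the labels' keywords name the alpha MHC promoter, which is active in cardiomyocytes. Doxy is taken as doxycycline, a tetracycline antibiotic that keeps tTA off its DNA sites, and FVBN as the wild-type strain. Neither the age and sex of the mice nor the Doxy dose and duration are stated in the labels. Nothing in the labels says whether each array holds RNA of its own animal, and a p-value here measures spread between samples that may be technical. In tissue RNA, fewer cells of a type and less RNA per cell cannot be told apart.

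A ribosome has a small subunit, which reads the messenger RNA (mRNA), and a large subunit, which joins the amino acids. Initiation factors (eIF) bring the first transfer RNA and the mRNA to the small subunit, elongation factors (eEF) deliver the later transfer RNAs and move the ribosome along, and kinases and binding proteins hold both steps back. In heart muscle, growth of the cells is known to go with more ribosomes, and much of the control of these genes is known to act on how well their mRNAs are translated, which arrays of RNA levels do not measure.

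Many mRNAs of ribosomal proteins and of some translation factors are known to begin with a run of pyrimidines, the TOP motif, through which mTOR signalling sets their translation. The RefSeq promoter table, on build GRCm38.p6, was therefore searched on the strand of the gene for C followed by at least 5 bases that are each C or T. The window ran from 20 bases before to 20 bases after the first listed start of each gene. Such a run was found for 14 of the 27 ribosomal protein genes in the table (51.9%) and for 12 of the 41 translation factor genes (29.3%). The share over the 6573 array genes in the table was 29.5%. On the opposite strand the shares were 18.5% for ribosomal proteins, 24.4% for factors and 31.5% for the array genes. A match describes letters and is no test of a start or of a function, and genes with several listed starts were read at the first one. The sequences run from 10 bases before to 20 bases after the start, 5′ to 3′, with the run in capitals. Among the members in which the run spans the start are Rps18 (chr17:33955646-33955675, minus strand), Rps27 (chr3:90213629-90213658, minus strand), Rps10 (chr17:27635225-27635254, minus strand) and the elongation factor gene Eef1a1 (chr9:78481705-78481734, minus strand). A further pair, Rpl6 (chr5:121204491-121204520, plus strand) and Eef1b2 (chr1:63176821-63176850, plus strand), is shown because both genes passed the test in tTA + Doxy against FVBN + Doxy. In Rpl6 the run ends before the start, and the Eef1b2 window holds none. Eif2b5, which also passed there and is not shown, has a run of 19 bases that begins at base −15 and spans the start.
Rps18: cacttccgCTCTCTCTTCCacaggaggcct
Rps27: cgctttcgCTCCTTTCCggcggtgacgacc
Rps10: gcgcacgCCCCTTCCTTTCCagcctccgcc
Eef1a1: ctccgCCCTCTTCCCgagggtgggggagaa
Rpl6: aCCTCCCgtcattgcttatagaccggaagc
Eef1b2: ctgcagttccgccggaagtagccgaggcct

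Values are normalized intensities, the deposited intensities after quantile normalization of the 19 arrays, and fold changes come from a limma fit of 4 group means to their log2. A change was called at a Benjamini-Hochberg adjusted p below 0.05 over the 7453 brightest probe sets, 60% of all, and counts over all genes refer to the 5658 genes among them. The filter used the mean over all 19 arrays and kept 66 members: 27 of 34 ribosomal protein genes (13 of 17 of the large subunit and 14 of 17 of the small subunit) and 39 of 49 factor genes. The labelled tissue carried its markers. The summed intensity of the 13 cardiomyocyte markers on the array, all tested, lay between 41510 and 47310 in all groups, and 1 of them was called in tTA against FVBN control and 2 between the Doxy groups. Of the 6 lymphocyte markers on the array, 3 were bright enough to be tested, and Cd3d was at the floor on all arrays. Their summed intensity lay between 410 and 472 in all groups. The titles do not say what their numbers, used here to name the arrays, stand for. No stretch of numbers mixes groups. The tTA numbers lie on both sides of those of the other groups, at 7288 to 7311 and again at 9310 and 9322. A cohort behind the numbers therefore cannot be told apart from the genotype or from Doxy. The beta-actin control probe sets give a sign of RNA quality, and their log2 ratio, 3′ end over 5′ end, was 0.36 ± 0.060 in tTA + Doxy (SD, n = 5), 0.32 ± 0.11 in tTA (n = 8), 0.51 ± 0.079 in FVBN + Doxy (n = 4) and 0.55 ± 0.0082 in FVBN control (n = 2). The ratio thus followed the genotype, and a fit that includes it cannot fully separate RNA quality from genotype.

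In tTA against FVBN control, of the 39 factor genes tested 1 passed, Eif4g2, which was lower in tTA, and of the 27 ribosomal protein genes 0 passed, against 2.95% of all genes tested (1.01% higher and 1.94% lower). At an unadjusted p below 0.05 there were 4 ribosomal protein genes (1 higher, 3 lower) and 5 factor genes (3 higher, 2 lower), against 17.3% of all genes (484 higher, 494 lower). Shares this close to those of all genes are no result about the members as a group. The median log2 fold change was 0.029 over the ribosomal protein genes, 0.019 over the factor genes and 0.015 over all genes. The sign of the first depended on the scaling: after scaling the arrays to 1 common median it was −0.076, with 4 of 27 genes above 0, and with no further normalization it was −0.061, with 5 of 27 above 0, where the quantile-normalized values put 18 of 27 above 0. The factor median was −0.018 and −0.0031 under the same settings. The groups did not overlap for 3 ribosomal protein genes and 4 factor genes, against 13.0% of all genes. Without tTA array 7294, 1 ribosomal protein gene passed, Rpl13a, lower in tTA, which stood at −0.17 ± 0.053 with all arrays (limma adjusted p = 0.0874).

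Eif4g2 encodes a relative of the scaffold eIF4G that lacks the part that binds the cap-binding protein, and it serves initiation on selected mRNAs. Its normalized intensity on the 8 tTA arrays ran from 153 to 204 with a median of 182, against 231 and 218 on the FVBN control arrays. All 8 tTA arrays lay below both control arrays. In log2 the change was −0.31 ± 0.076 (SE; 95% interval −0.47 to −0.16), or 1.24-fold lower, with a limma adjusted p of 0.0252. The call was lost without either FVBN control array, at −0.27 with an adjusted p of 0.347 without array 8177 and at −0.36 with 0.115 without array 8182. It was also lost with the beta-actin ratio in the fit, at −0.22 with an adjusted p of 0.458. The same held with all probe sets tested (adjusted p = 0.0709) and with only the arrays compared in the fit (adjusted p = 0.0703). The call was thus lost in 5 of 31 alternatives. In the Doxy groups Eif4g2 was at 190, 167, 197, 191 and 180 on the tTA + Doxy arrays, against 201, 190, 197 and 196 on the FVBN + Doxy arrays. These groups overlapped, and the log2 fold change was −0.086 ± 0.065 (limma adjusted p = 0.464). The 2 FVBN control arrays were the highest of all 19, and they are shared by the comparison of FVBN + Doxy with FVBN control, where Eif4g2 stood at −0.20 ± 0.083 (limma adjusted p = 0.396).

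The other genes of the cap-binding group did not pass in tTA against FVBN control. Eif4a2, one of the helicases that unwind the start of the mRNA, had 1016 to 1194 with a median of 1085 on the tTA arrays, against 949 and 985 on the FVBN control arrays. The groups did not overlap, and the log2 fold change of 0.19 ± 0.065 had a limma adjusted p of 0.134. Its paralogue Eif4a1 stood at −0.075 ± 0.060 (adjusted p = 0.569). Eif4e, the cap-binding protein itself, was too dim to be tested, at group means of 20.5 in tTA + Doxy, 19.8 in tTA, 21.2 in FVBN + Doxy and 20.9 in FVBN control. The proteins that hold eIF4E back, Eif4ebp1 at −0.039 and Eif4ebp2 at −0.060, did not pass (limma adjusted p = 0.885 and 0.742).

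**Figure D1:**
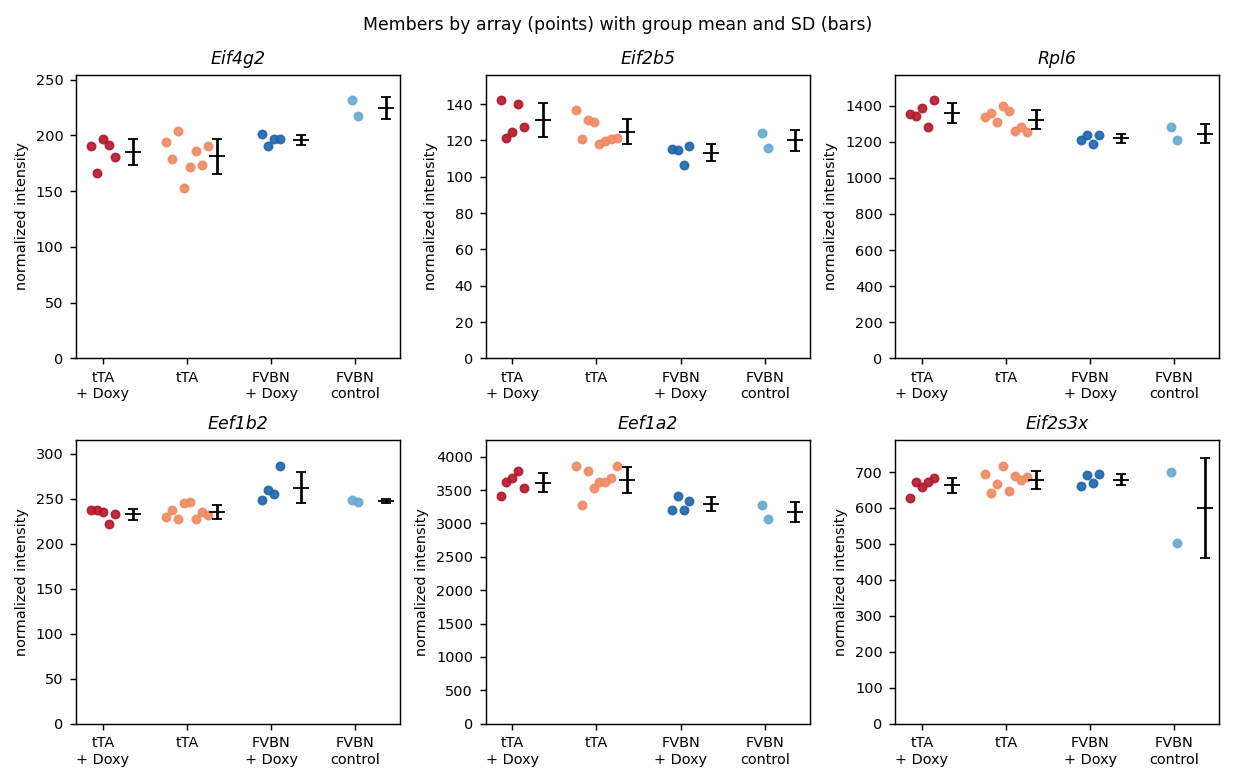
Normalized intensity (vertical axes from 0) of Eif4g2, Eif2b5, Rpl6, Eef1b2, Eef1a2 and Eif2s3x on each array (points), with the group mean and SD beside them (bars), for tTA + Doxy, tTA, FVBN + Doxy and FVBN control. The 8 tTA points of Eif4g2 lie below both FVBN control points, the 5 tTA + Doxy points of Eif2b5 and Rpl6 lie above the 4 FVBN + Doxy points, those of Eef1b2 lie below them, and 1 FVBN control point of Eif2s3x stands apart at 501.

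Among elongation factors in tTA against FVBN control, Eef1a2, the form of the transfer RNA carrier found in adult muscle and neurons, came closest to the threshold. Its normalized intensity on the 8 tTA arrays ran from 3272 to 3865 with a median of 3648, against 3272 and 3070 on the FVBN control arrays. The groups met at 1 value, 3272, while all 8 tTA arrays lay above the control mean. The log2 fold change of 0.20 ± 0.057 (95% interval 0.087 to 0.32) did not pass, with a limma adjusted p of 0.0523. It passed under 6 of the 31 alternatives. Among these were leaving out tTA array 7292 (adjusted p = 0.0188) or tTA + Doxy array 7399 (adjusted p = 0.0476), and the beta-actin ratio in the fit, at 0.31 (adjusted p = 0.0394). With Doxy, Eef1a2 was at 3415, 3623, 3673, 3790 and 3532 in tTA + Doxy, against 3206, 3415, 3206 and 3335 in FVBN + Doxy. All 5 tTA + Doxy arrays lay above the FVBN + Doxy mean, and 0.13 ± 0.048 had a limma adjusted p of 0.111. This passed under 2 of the 31 alternatives, with the beta-actin ratio in the fit, at 0.20 (adjusted p = 0.0262), and with array weights, at 0.14 (adjusted p = 0.0484). The widely expressed form, Eef1a1, stood at −0.072 ± 0.057 without Doxy (adjusted p = 0.561) and at 0.029 ± 0.049 with it (adjusted p = 0.77). Over the 19 arrays, the members whose log2 values, centred on their groups, correlated most highly with those of Eef1a2 were Eif4g3 (r = 0.737), Eif1b (r = 0.668) and Eif4ebp2 (r = 0.645), on points that share arrays and normalization.

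Eef2, which moves the ribosome along the mRNA, differed by 0.040 ± 0.069 in tTA against FVBN control (95% interval −0.10 to 0.18; limma adjusted p = 0.821). Eef2k, the kinase that inhibits eEF2, stood at −0.082 ± 0.063 (adjusted p = 0.547). Neither passed in the Doxy groups, at 0.049 ± 0.059 for Eef2 and 0.014 ± 0.053 for Eef2k (adjusted p = 0.667 and 0.899).

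With Doxy in both genotypes, 1 ribosomal protein gene was higher in tTA + Doxy than in FVBN + Doxy, Rpl6, and the factor genes gave 1 that was higher, Eif2b5, and 1 that was lower, Eef1b2. These are 1 of 27 and 2 of 39, against 6.20% of all genes tested (4.54% higher and 1.66% lower). At an unadjusted p below 0.05 there were 4 ribosomal protein genes, all higher, and 11 factor genes, 10 higher and 1 lower, against 21.8% of all genes (727 higher and 508 lower of 5658). The groups did not overlap for 5 ribosomal protein genes and 6 factor genes, against 10.1% of all genes. The median log2 fold change was 0.054 over ribosomal protein genes, 0.033 over factor genes and −0.013 over all genes. These medians kept their sign under the other scalings, at 0.069 and 0.062 for ribosomal proteins and 0.058 and 0.051 for factors.

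Rpl6, a large-subunit protein, had normalized intensities of 1353, 1345, 1387, 1282 and 1429 in tTA + Doxy, against 1208, 1240, 1187 and 1240 in FVBN + Doxy. Every tTA + Doxy array lay above every FVBN + Doxy array. Rpl6 had a log2 fold change of 0.16 ± 0.044 (95% interval 0.066 to 0.25), or 1.12-fold, with a limma adjusted p of 0.0354. The call was lost in 9 of 31 alternatives: with the beta-actin ratio in the fit, with only the arrays compared in the fit, and without any 1 of tTA + Doxy arrays 7399, 7485 and 7488 or FVBN + Doxy arrays 8337, 8338, 8340 and 8341. Across all 31 the log2 fold change stayed between 0.14 and 0.19 and the adjusted p between 0.00854 and 0.113. Without Doxy, Rpl6 stood at 0.085 ± 0.052 in tTA against FVBN control (limma adjusted p = 0.429).

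Rpl7a, Rps3 and Rps3a1 were the other ribosomal protein genes at an unadjusted p below 0.05 in the Doxy groups. Rpl7a, also of the large subunit, averaged 1108 ± 8.21 in tTA + Doxy and 1014 ± 30.3 in FVBN + Doxy (SD, n = 5 and 4), with 0.13 ± 0.045 and a limma adjusted p of 0.0948. Rps3a1, of the small subunit, ran from 1641 to 1762 in tTA + Doxy, against 1559 to 1624 in FVBN + Doxy, with 0.11 ± 0.043 and a limma adjusted p of 0.146. Rps3, at the mRNA entry side of the small subunit, stood at 0.11 ± 0.044 (adjusted p = 0.161) and passed when arrays were scaled to the same median. Rplp0, the base of the ribosomal stalk, stood at 0.034 ± 0.045 (adjusted p = 0.706).

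**Figure D2:**
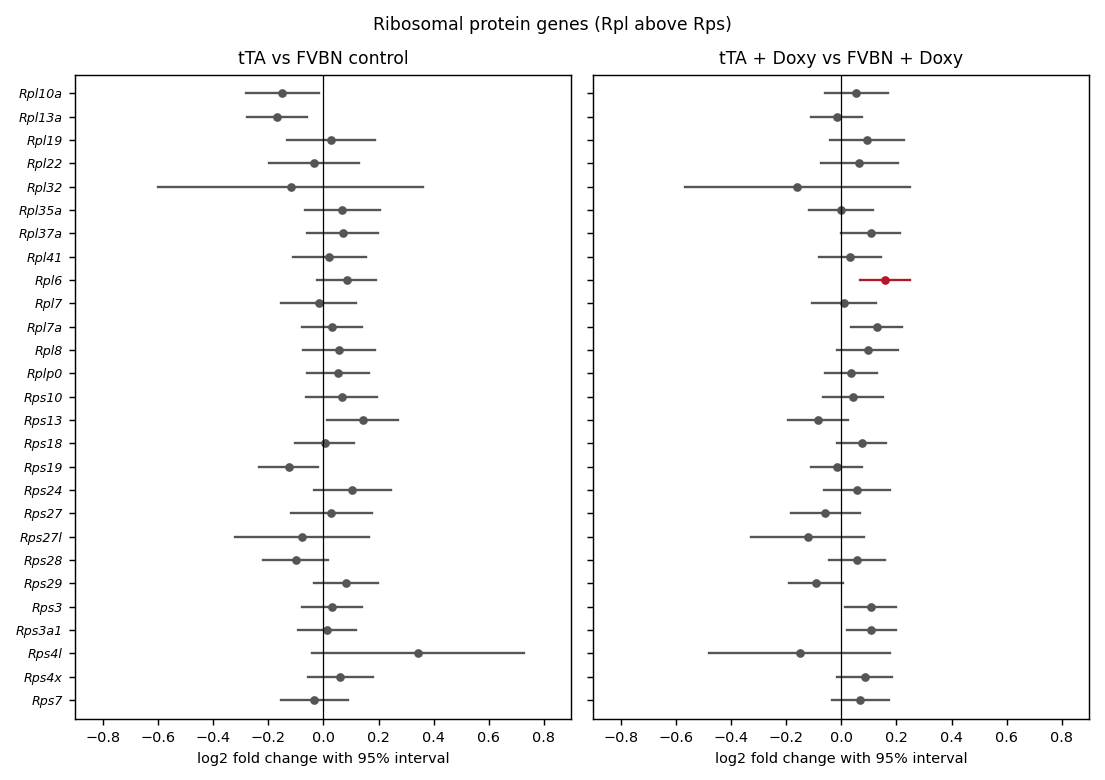
Log2 fold changes (horizontal axis) of the 27 ribosomal protein genes tested, with 95% intervals that are not adjusted for the number of tests, for tTA over FVBN control (left) and tTA + Doxy over FVBN + Doxy (right). Rpl6, in red, is the gene that passed, and the widest intervals belong to Rpl32 and Rps4l.

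Eif2b5 encodes the catalytic subunit of eIF2B, the exchange factor that reloads eIF2 with GTP after each start and that the stress kinases of eIF2 shut off. Its normalized intensities were 142, 122, 124, 140 and 127 in tTA + Doxy, against 116, 115, 106 and 117 in FVBN + Doxy. Every tTA + Doxy array was above every FVBN + Doxy array. The log2 fold change was 0.21 ± 0.055 (95% interval 0.095 to 0.32), or 1.16-fold, with a limma adjusted p of 0.026. A further probe set of Eif2b5 gave 0.096 ± 0.080 and did not pass (adjusted p = 0.477). The call was lost in 4 of 31 alternatives: with all probe sets tested and without tTA + Doxy arrays 7399 or 7486 or FVBN + Doxy array 8340, where the adjusted p reached 0.0919. Without Doxy, Eif2b5 ran from 118 to 137 with a median of 121 in tTA, against 124 and 116 in FVBN control, and its log2 fold change of 0.055 ± 0.065 did not pass (limma adjusted p = 0.727).

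The other eIF2B subunits on the array did not pass in the Doxy groups. Eif2b1 had 0.17 ± 0.053 (limma adjusted p = 0.0618), and its 5 tTA + Doxy arrays, at 67.8 to 76.3, lay above the 4 FVBN + Doxy arrays, at 58.5 to 66.3. Eif2b2 and Eif2b4 stood at 0.015 and 0.060 (adjusted p = 0.919 and 0.492). Of the 4 kinases of eIF2, Eif2ak1 was bright enough to be tested and stood at 0.0042 ± 0.058 with Doxy and 0.049 ± 0.068 without it (adjusted p = 0.974 and 0.773). Eif2ak2, Eif2ak3 and Eif2ak4 were too dim.

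Eef1b2, the subunit that exchanges GDP for GTP on eEF1A, had normalized intensities of 237, 237, 235, 222 and 233 in tTA + Doxy, against 248, 260, 255 and 287 in FVBN + Doxy. Every tTA + Doxy array was below every FVBN + Doxy array. This gave a log2 fold change of −0.17 ± 0.044 (95% interval −0.26 to −0.078), or 1.13-fold lower, and a limma adjusted p of 0.025. A further probe set of Eef1b2, too dim to be tested, gave 0.0038 ± 0.043 in a fit of all probe sets and so showed no decrease. The call was lost in 6 of 31 alternatives. These were scaling to the same median (−0.13, adjusted p = 0.0797), no further normalization (−0.13, 0.0614), only the arrays compared (0.0596), and leaving out tTA + Doxy array 7486 (0.0639) or 7488 (0.0507) or FVBN + Doxy array 8341 (0.119). Without Doxy it stood at −0.076 ± 0.052 (limma adjusted p = 0.495), with all 8 tTA arrays below the FVBN control mean.

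Eif6, which keeps free large subunits from joining small ones, missed the threshold in the Doxy groups. It was at 87.1 to 97.7 in tTA + Doxy, against 76.5 to 85.5 in FVBN + Doxy, without overlap. The log2 fold change of 0.20 ± 0.060 had a limma adjusted p of 0.0507 and passed under 10 of 31 alternatives. Eef1akmt1, an enzyme that methylates eEF1A, had the highest log2 fold change of the factor genes, 0.23 ± 0.080, and did not pass (adjusted p = 0.0885). It did under 2 of 31 alternatives, with array weights and without FVBN + Doxy array 8338. The eIF3 complex, the scaffold that holds the small subunit ready, had all 10 of its genes on the array tested and 0 called in any comparison. Between the Doxy groups 7 of the 10 were above 0, from −0.098 for Eif3e (limma adjusted p = 0.251) to 0.15 for Eif3j1 (limma adjusted p = 0.161).

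**Figure D3:**
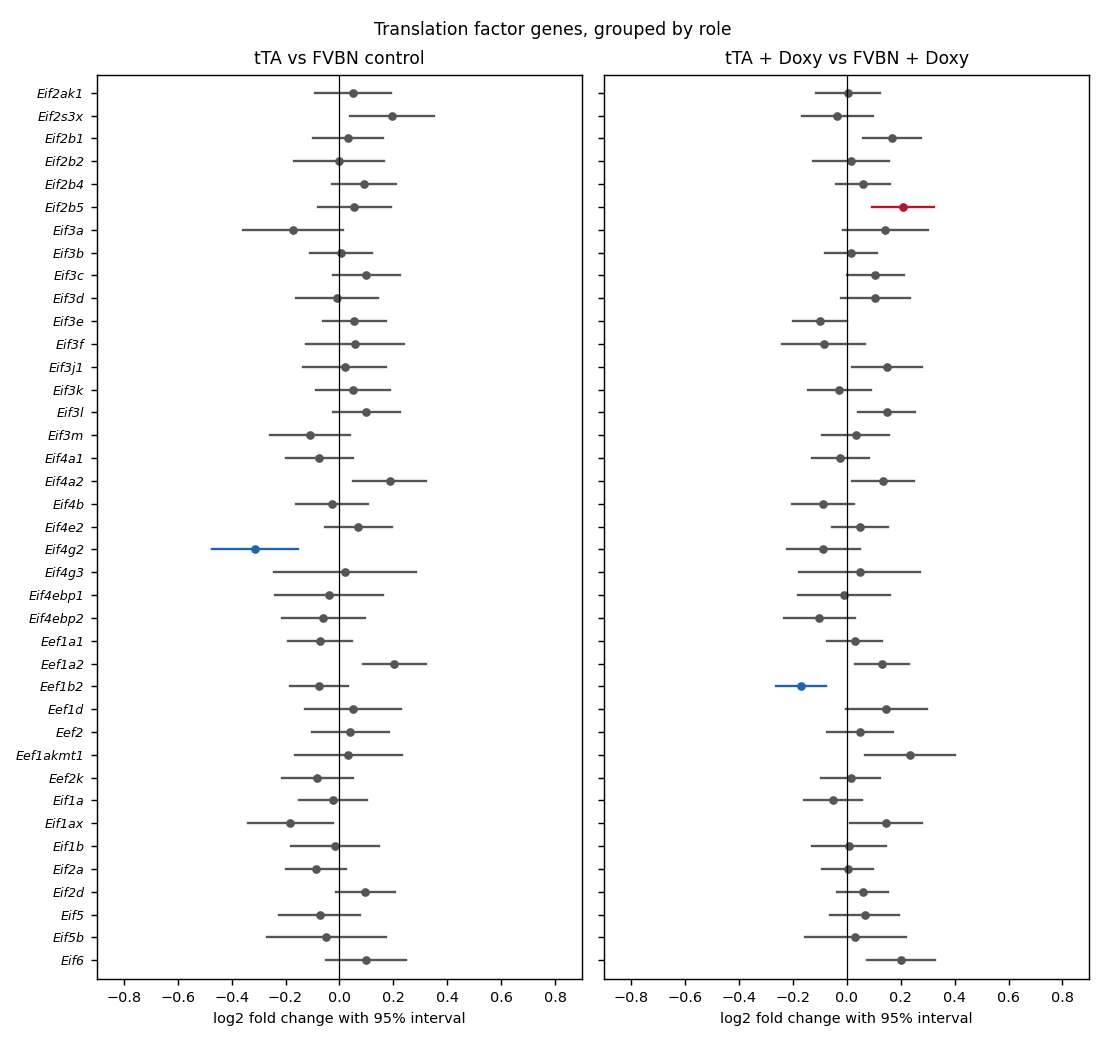
Log2 fold changes (horizontal axis) of the 39 translation factor genes tested, ordered by role, with unadjusted 95% intervals, for tTA over FVBN control (left) and tTA + Doxy over FVBN + Doxy (right). Eif4g2 in blue is lower in tTA, and in the Doxy groups Eif2b5 in red is higher and Eef1b2 in blue is lower.

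The comparisons of tTA with FVBN with and without Doxy share no array. The log2 fold change had the same sign in both for 17 of 27 ribosomal protein genes (63.0%), 13 of them higher in both, and for 24 of 39 factor genes (61.5%), against 50.5% of all genes. The ribosomal protein signs without Doxy are those that turned with the scaling. The factor median without Doxy also turned, from 0.019 with 21 of 39 genes above 0. It was −0.018 with 16 above 0 after scaling to the same median, and −0.0031 with 19 above 0 with no further normalization. None of the 4 called genes passed in both comparisons, and their difference between them is the interaction, in which 0 of 27 ribosomal protein genes and 0 of 39 factor genes passed, against 0.0177% of all genes. At an unadjusted p below 0.05 the interaction counted 5 ribosomal protein and 4 factor genes, against 15.0% of all genes. The interaction was 0.23 ± 0.10 for Eif4g2 (limma adjusted p = 0.312), 0.15 ± 0.085 for Eif2b5 (adjusted p = 0.395), 0.072 ± 0.068 for Rpl6 (adjusted p = 0.623) and −0.095 ± 0.068 for Eef1b2 (adjusted p = 0.515).

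Doxy alone gave 0 called ribosomal protein genes and 0 called factor genes by limma in FVBN + Doxy against FVBN control, where 0.0353% of all genes passed. At an unadjusted p below 0.05 there were 2 ribosomal protein genes, both higher, and 4 factor genes, 1 higher and 3 lower, against 12.2% of all genes (323 higher and 367 lower). The groups did not overlap for 4 ribosomal protein genes and 6 factor genes, against 24.2% of all genes. The median log2 fold change was 0.0012 over ribosomal protein genes, −0.023 over factor genes and 0.0096 over all genes, and under the other scalings the ribosomal median was −0.093 and −0.081 and the factor median −0.084 and −0.072. Between tTA + Doxy and tTA 0 of 27 and 0 of 39 passed, against 0.0707% of all genes. There 2 genes of each class had an unadjusted p below 0.05, against 7.83% of all genes, and the groups were apart for 0 of either class, against 0.389% of all genes.

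The 95% intervals give the sizes of change that the arrays leave possible. In tTA + Doxy against tTA the 95% interval lay wholly within ±0.25 on the log2 scale for 25 of 27 ribosomal protein genes (92.6%) and 37 of 39 factor genes (94.9%), against 92.2% of all genes. For the genotypes with Doxy, tTA + Doxy against FVBN + Doxy, this held for 24 (88.9%) and 28 (71.8%), against 75.5% of all genes. Without Doxy, it held for 21 (77.8%) and 30 (76.9%) in tTA against FVBN control, where all genes gave 67.4%. For FVBN + Doxy set against FVBN control it held for 19 (70.4%) and 23 (59%), where all genes gave 60.6%. Within ±0.5 lay the intervals of 25 of 27 ribosomal protein genes and all 39 factor genes in tTA against FVBN control. The exceptions there were Rpl32 and Rps4l, a transcribed pseudogene, whose 95% intervals in that comparison were −0.60 to 0.36 and −0.043 to 0.73. These intervals are not adjusted for the number of genes.

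**Figure D4:**
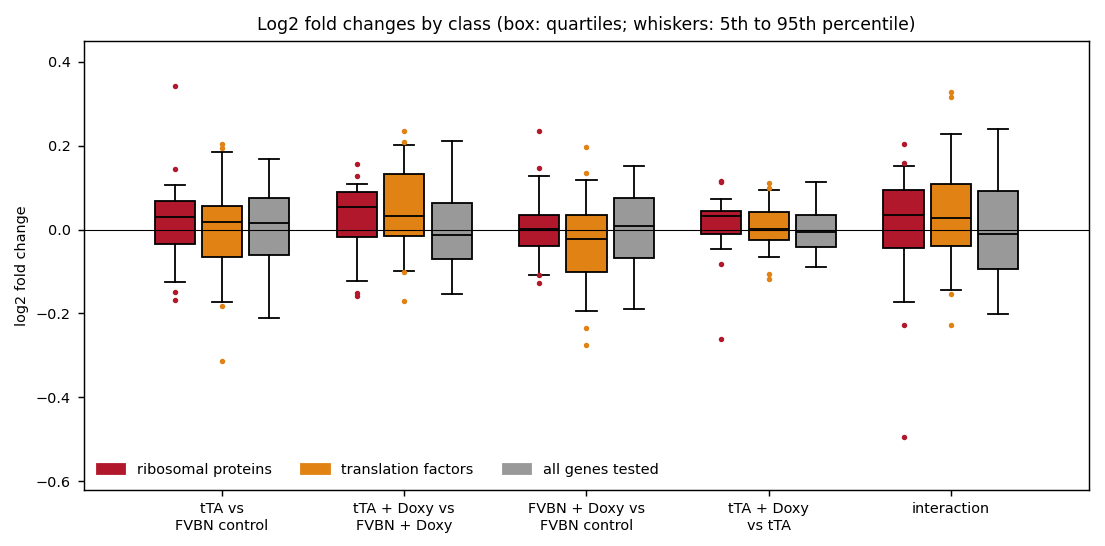
Log2 fold changes (vertical axis) of ribosomal protein genes (red), translation factor genes (orange) and all 5658 genes tested (grey) in the 5 comparisons; boxes show the quartiles and median, whiskers the 5th to 95th percentile, and points are members beyond the whiskers. After quantile normalization, the medians of both classes lie between −0.023 and 0.054 in every comparison.

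The class level was also read on each array. It was not read for other sets of genes, so small values here are not taken as a trait of a class. The mean over the 27 genes of each array's log2 deviation from the gene's 19-array mean was 0.013 ± 0.025 in tTA + Doxy (SD, n = 5), 0.0017 ± 0.040 in tTA (n = 8), −0.012 ± 0.038 in FVBN + Doxy (n = 4) and −0.016 ± 0.0082 in FVBN control (n = 2). In the values as deposited, FVBN control was the highest group instead, at 0.035 ± 0.012, beside 0.022 ± 0.023 in tTA + Doxy, −0.014 ± 0.036 in tTA and −0.016 ± 0.032 in FVBN + Doxy. The 39 factor genes gave 0.014 ± 0.012 in tTA + Doxy, 0.0058 ± 0.027 in tTA, −0.030 ± 0.037 in FVBN + Doxy and 0.0024 ± 0.062 in FVBN control after normalization. The spread within groups, as a log2 SD, had a median of 0.075 over ribosomal protein genes, 0.088 over factor genes and 0.084 over all genes. It ran from 0.052 for Rps3a1 to 0.30 for Rpl32, and from 0.056 for Eef1b2 to 0.18 for Eif4g3. Between pairs of ribosomal protein genes, the correlation of group-centred values over the 19 arrays had a median of 0.11 (351 pairs), beside 0.062 for factor genes (741 pairs) and −0.0020 for all genes, as a description of points that share arrays.

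**Figure D5:**
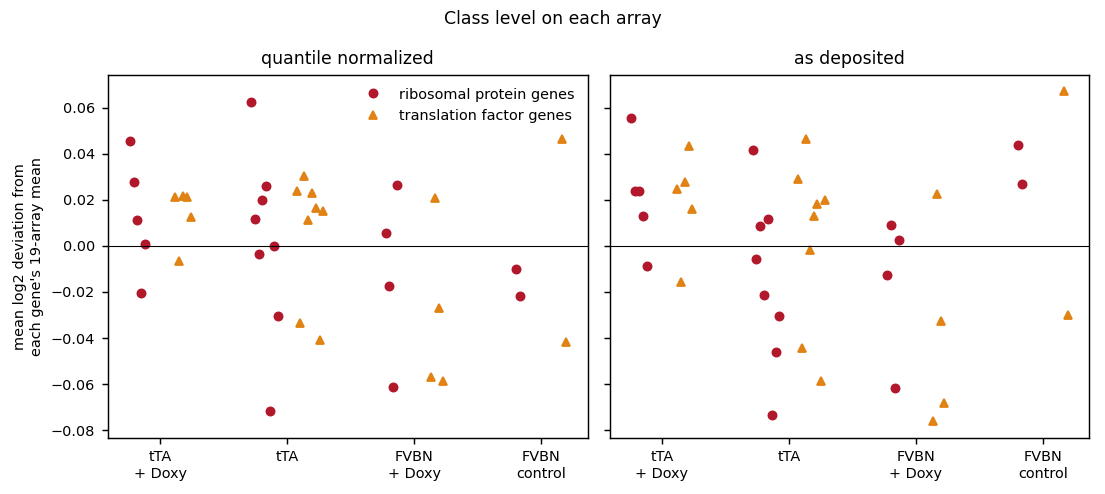
Mean log2 deviation of each array from the genes' 19-array means (vertical axis) for the ribosomal protein genes (red circles, 27 genes) and the translation factor genes (orange triangles, 39 genes), after quantile normalization and as deposited, by group. For ribosomal proteins the 2 FVBN control points lie below 0 after normalization and above 0 as deposited.

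Eif2s3x, the X-linked gene of the gamma subunit of eIF2, which binds GTP and the first transfer RNA, is singled out after its values were seen. Its normalized intensity was 629, 671, 658, 671 and 683 in tTA + Doxy, 641 to 718 with a median of 682 in tTA and 662, 691, 668 and 693 in FVBN + Doxy, against 699 and 501 in FVBN control. The value of 501, on array 8182, was the lowest of the 19, where the other 18 ran from 629 to 718. The X-inactivation transcript Xist, whose probe set is too dim to be tested, was at 16.7 on the same array and at 35.6 to 63.1 on the other 18. The Y-linked copy Eif2s3y was at the floor on all 19. The log2 fold change of Eif2s3x in tTA against FVBN control was 0.19 ± 0.075 (limma adjusted p = 0.188). It was −0.047 (adjusted p = 0.797) without array 8182 and 0.43 (adjusted p = 0.00283) without array 8177, so 1 array sets its sign. The labels give no sex.

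Other genes of the pathway were counted over lists chosen by function. Of the 21 cytosolic aminoacyl-tRNA synthetase genes tested, which charge transfer RNAs, 2 were higher in tTA + Doxy than in FVBN + Doxy: Hars by 0.30 ± 0.065 (limma adjusted p = 0.00788) and Qars by 0.27 ± 0.055 (limma adjusted p = 0.00479), each in 5 of 5 arrays. Of 25 ribosome biogenesis genes 1 was higher there, Ncl (nucleolin, an abundant nucleolar protein), by 0.33 ± 0.079 (limma adjusted p = 0.0172). Of 10 targets of the integrated stress response, the programme that eIF2 kinases set off, 1 was higher, Ddit3, by 0.24 ± 0.059 (limma adjusted p = 0.0194). Of 5 genes of MYC and its regulators 1 was higher, Max, the partner of MYC, by 0.49 ± 0.11 (limma adjusted p = 0.0153). For Ncl and Ddit3 the FVBN + Doxy arrays also lay below both FVBN control arrays. Ncl was at 189 to 233 against 245 and 252, and Ddit3 at 97.8 to 114 against 122 and 117. For Hars, Qars and Max these 2 groups overlapped, and no gene of these lists was called between them. In tTA against FVBN control 1 of 14 genes of mTOR and S6 kinase signalling rose, Mknk1, a kinase of eIF4E, by 0.21 ± 0.052 (limma adjusted p = 0.0265), in 8 of 8 arrays. No gene of these lists fell in either comparison, and 0 were called among 9 poly(A) binding and mRNA regulators, 6 termination and recycling genes and 2 ribosomal components outside the name rule. The shares of all genes called higher were 4.54% with Doxy and 1.01% without it.

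Gene lists named after other cell types were summed beside these calls. Such a sum follows its brightest genes. The skeletal muscle list includes Acta1 and the smooth muscle list Des, and whether cardiomyocytes carried this RNA was not tested. The summed intensity of the 8 smooth muscle cell or pericyte markers was 1035 to 1257 in tTA + Doxy and 998 to 1148 in tTA, against 1240 to 1406 in FVBN + Doxy and 1401 to 1504 in FVBN control, and 2 of them were called without Doxy and 1 with it. The 8 skeletal muscle genes, with Myh1 at the floor on all arrays, summed to 1807 to 3144 in tTA + Doxy and 1734 to 3622 in tTA, against 1290 to 1740 in FVBN + Doxy and 964 to 1074 in FVBN control, with 1 called in each of these genotype comparisons. The 8 endothelial markers summed to 1915 to 2084 in tTA + Doxy and 2005 to 2166 in tTA, against 1940 to 2270 in FVBN + Doxy and 2245 to 2269 in FVBN control, with 1 called without Doxy. The 3 red blood cell markers summed to 2501 to 5422 in tTA + Doxy and 2597 to 4680 in tTA, against 5166 to 5671 in FVBN + Doxy and 4662 to 5173 in FVBN control, with 0 called by limma. Of the other lists, 1 atrial marker was called without Doxy, 1 fibroblast and 1 macrophage marker with it, and 0 lymphocyte markers in either. The part of these markers in the members' values was not tested. With the beta-actin ratio, which followed the genotype, in the fit, Eif4g2 and Rpl6 no longer passed, Eif2b5 and Eef1b2 did, and Eef1a2 passed in both genotype comparisons.

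The 17 members below the brightness filter were Eef1g, Eif2ak2, Eif2ak3, Eif2ak4, Eif2s2, Eif2s3y, Eif4e, Eif4enif1, Eif4h, Eif5a, Rpl38, Rpl39, Rpl39l, Rpl7l1, Rps14, Rps15 and Rps20. In a limma fit of all probe sets 0 of them passed in any of the 5 comparisons. At an unadjusted p below 0.05 they counted 1 for tTA against FVBN control, 2 for tTA + Doxy set against FVBN + Doxy, 1 for FVBN + Doxy set against FVBN control and 0 for the others. Eef1g and Eif2s3y were at the floor on all arrays. A further 35 genes with member symbols, among them Rpl3, Rps2 and Rps6, share every probe set with another gene and were not measured by this rule. Of 16 further tested probe sets of 13 members 0 passed in any comparison, and 10 and 6 of the 16 had the sign of the gene's brightest probe set for tTA over FVBN control and for tTA + Doxy over FVBN + Doxy. Signal from processed copies of ribosomal protein genes on the same probes was not tested.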

How the data were processed

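The deposited table holds, per the file headers and its values, 1 intensity for each of 12488 probe sets on a linear scale. How the authors corrected background, summarised probes and normalized is not given in the sources used here. Groups come from the sample titles, and 1 array whose title gives no treatment entered no comparison. A probe annotation table named the genes, and 66 control probe sets were removed. The deposited intensity values of 19 arrays were quantile normalized, floored at 14.37, the 10th percentile, and log2 transformed. The brightest 60% were fitted in limma 3.58.1 under R 4.3.3 as 4 group means, with an intensity trend and robust variance moderation. Benjamini-Hochberg adjustment ran over all tested probe sets of a comparison. Fold is 2 to the size of the log2 fold change. The members and lists were chosen with earlier results of these data known. Genes named were the called members, a fixed set of central factors (among them Rplp0, Eef1a1, Eef1a2, Eef2, Eef2k, the eIF2 kinases, Eif2b5, Eif3e and Eif6), called genes of the pathway lists, and further members described as near the threshold or as extremes after their values were seen. The fit was tested on simulated data. Figures were drawn with matplotlib 3.10.9 in Python 3.11.15. Alternatives covered the scaling, the floor, the share of probe sets tested, array weights, covariates, the arrays fitted and each array left out. Keeping the control probe sets in the normalization was an alternative chosen after seeing the data. The number of arrays limits the precision.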

Additional observations from a re-analysis of the deposited data

Results flagged for a closer look

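In groups of 4 to 10 arrays, 1 array of a named member stood far from the rest of its group in 3 of 51 groups examined over 17 members, where chance flags about 1 in 20. Eef1b2 was at 222.24 on tTA + Doxy array 7486, while the other tTA + Doxy arrays ran from 233.04 to 237.01, and the call of this gene was lost without that array. Eif2ak1, the heme-regulated kinase of eIF2, was at 129.02 on FVBN + Doxy array 8341, beside 142.92 to 145.37 on the others of that group. Eif4ebp2, an inhibitor of eIF4E, was at 542.8 on FVBN + Doxy array 8338, beside 503.27 to 508.02 on the others.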

How the results depend on the processing

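Of the 10 counts of called members (ribosomal protein and factor genes in 5 comparisons), 280 values under the alternatives stayed within 1.5 times the reported count and 28 did not. Most of the 10 reported counts were 0, and a 0 that stayed 0 was among the values that held. The tally therefore says little about the counts above 0. In tTA against FVBN control, scaling to the same median gave 1 ribosomal protein gene, Rps28, lower. The factor count there was 0 with all probe sets or only the arrays compared, and 2 with the brightest 40%, array weights or the control probe sets kept. In tTA + Doxy against FVBN + Doxy, the ribosomal protein count was 2 with scaling to the same median, and 0 with the beta-actin covariate or only the arrays compared. The factor count was 7 with array weights, 6 higher and 1 lower, and 1 with all probe sets. With 1 array left out at a time, the counts in tTA against FVBN control ran from 0 to 1 for ribosomal protein genes and from 0 to 2 for factor genes. In tTA + Doxy against FVBN + Doxy they ran from 0 to 1 and from 0 to 3, and in FVBN + Doxy against FVBN control from 0 to 0 and from 0 to 1. In tTA + Doxy against tTA and in the interaction they stayed at 0. Without an FVBN control array the lone array left is assumed to vary like the other groups. The cause of these moves was not tested. The split of calls over all probe sets in tTA against FVBN control was 72 higher and 136 lower, 46 and 221 with scaling to the same median, and 69 and 207 with no further normalization. The median over the ribosomal protein genes of the interaction was 0.036, and 0.18 and 0.16 under those settings, and that over the factor genes was 0.027, and 0.080 and 0.058. No paired analysis was possible because the array numbers are not shared between groups. Brightness limits what was seen of the 17 untested members.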

Other observations

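The array whose title gives no treatment entered no comparison. In the deposited intensities, 3 of the 66 tested members lay outside the range of the 19 grouped arrays on it (4.55%), all below, against 433 of 5658 genes (7.65%). These were Rpl6 at 1135, beside 1176 to 1440 on the grouped arrays, Rpl7a at 941.6, beside 950 to 1164, and Rps18 at 1731, beside 1749 to 2011.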
